A study of Mus musculus with 58 samples.

Results

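The genes described here sense double-stranded or foreign RNA or are induced by interferon, and were taken as every probe set annotated to 1 of 34 listed symbols. Of these genes, 32 had a probe set of their own, of 18193 genes named by a single symbol on the array, and together they held 55 of its 45037 probe sets. Isg15 was read only by a probe set shared with a second symbol and was kept out of all counts, and no probe set was matched to Ifi44, which was not analysed here. All values are log2 intensities, and each mutant group was set against the wild type of its own experiment.

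Messenger RNA of quadriceps muscle was profiled in 34 male mice. Experiment 1 held CUGexp transgenic line 20b, CUGexp transgenic line 41 and FVB wild type, 6 mice each at 6 months of age. CUGexp mice carry a human skeletal actin transgene with an expanded CTG repeat, so the repeat RNA is made in skeletal muscle, and each line is a separate transgenic line. Experiment 2 held 3 Clcn1-null mice, which lack the muscle chloride channel and are myotonic, and 3 BALB wild-type mice at 3 months of age, and experiment 3 held 5 Mbnl1-null mice, which lack the splicing regulator sequestered by CUG repeat RNA, and 5 FVB wild-type mice at 3 months of age. All genetic changes were constitutive and no mouse was treated.

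Cytosolic helicases such as Ifih1 (MDA5) and Ddx58 (RIG-I) bind double-stranded RNA and signal through the mitochondrial adaptor Mavs to Irf3 and Irf7, which switch on interferon genes. Secreted interferon acts back on cells through a complex that contains Stat2 and Irf9, binds the interferon-stimulated response element and induces effectors such as the Ifit, Oas, Mx and Gbp families. Muscle fibres, endothelial cells and resident macrophages can all run this pathway, and expanded CUG repeat RNA folds into hairpins.

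Replicate mice correlated at 0.9489 to 0.993 across probe sets, and the lowest values belonged to Clcn1-null mouse 3. Skeletal muscle markers read between 13.18 and 17.01 in all mice. In the Clcn1-null mice the Clcn1 probe set averaged 9.41 ± 0.12, against 10.83 ± 0.52 in BALB wild type (SD, n = 3 each), a difference of -1.42 (SE 0.28) with a limma adjusted p of 0.0507. Mbnl1 averaged 13.08 ± 0.12 in Mbnl1-null mice, against 13.81 ± 0.05 in FVB wild type (SD, n = 5 each; -0.73, SE 0.06), so RNA matched by this probe set was still present. Whether these probe sets lie within the deleted parts is not given in the sources used here. Whether the experiments were normalised together is not given in the sources used here, so no level is set against one of another experiment.

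Many members were dim. An intensity of 32, a log2 value of 5, was taken as the floor below which a reading was not used as a level. In experiment 1, 15 of the 55 member probe sets lay under it in every mouse, 34 lay at or over it in every mouse and 6 were mixed. In experiment 2 these counts were 16, 38 and 1, and in experiment 3 they were 26, 19 and 10. All probe sets of Ifit1, Irf7, Mx1, Oasl1, Oasl2 and Usp18 were under the floor throughout experiment 1, and those of Irf7, Isg20, Oas3 and Oasl2 throughout experiment 2. In experiment 3 the same held for 12 genes: Dhx58, Ifit1, Irf7, Isg20, Mx1, Mx2, Oas1a, Oas3, Oasl1, Rsad2, Usp18 and Zbp1. Irf7, the factor that amplifies interferon production, was therefore under the floor in all 34 mice. At the other end, 11 genes had a probe set over the floor in every mouse of all experiments: Ddx58, Eif2ak2, Gbp2, Ifi27, Ifi35, Ifih1, Irf1, Irf3, Irf9, Mavs and Trim25. A probe set was tested where it reached the floor in at least as many mice as the smallest group held, which left 37 member probe sets of 24 genes in experiment 1, 39 of 28 genes in experiment 2 and 20 of 12 genes in experiment 3.

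**Figure D1:**
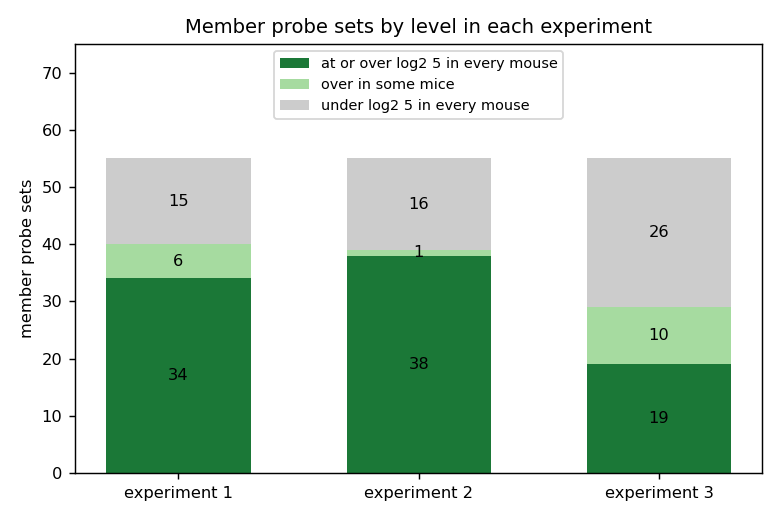
Number of member probe sets (vertical axis) in each of the 3 experiments, stacked by level: at or over a log2 intensity of 5 in every mouse, over in some mice, or under in every mouse. The share under the floor in every mouse is 15, 16 and 26 of 55 in experiments 1, 2 and 3.

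The core of the interferon-stimulated response element, taken here as GAAA, any 2 bases and GAAA again, or TTTC, any 2 bases and TTTC on the other strand, was searched in the 250 bases before to 50 bases after the start of each gene (RefSeq, GRCm38.p6). It was present in 13 of the 27 member genes with such a window (48.1%), against 3.99% of 27025 genes, and matches can overlap each other. Among member genes called in a mutant group it was in 3 of 7 (Gbp2, Ifih1 and Stat2), and among the other members in 10 of 20. A match describes letters and is not evidence of binding. The windows of Ifih1 and Mavs, a sensor and its adaptor that moved in opposite directions in Mbnl1-null muscle, and of Gbp2 and Ifit3, effectors discussed below, are printed 5′ to 3′ with the matches in capitals. Ifih1 lies at chr2:62646206-62646505 on the minus strand and matched 32 bases after the start. Mavs lies at chr2:131233813-131234112 on the plus strand and held no match. Gbp2 lies at chr3:142620413-142620712 on the plus strand and matched 59 bases before the start. Ifit3 lies at chr19:34583279-34583578 on the plus strand and matched 156 and 122 bases before it.
Ifih1: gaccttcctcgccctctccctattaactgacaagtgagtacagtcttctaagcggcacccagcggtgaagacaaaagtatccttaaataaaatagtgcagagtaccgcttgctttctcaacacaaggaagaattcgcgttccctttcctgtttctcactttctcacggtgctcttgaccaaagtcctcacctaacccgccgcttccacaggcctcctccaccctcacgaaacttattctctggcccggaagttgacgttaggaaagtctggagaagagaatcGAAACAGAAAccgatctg
Mavs: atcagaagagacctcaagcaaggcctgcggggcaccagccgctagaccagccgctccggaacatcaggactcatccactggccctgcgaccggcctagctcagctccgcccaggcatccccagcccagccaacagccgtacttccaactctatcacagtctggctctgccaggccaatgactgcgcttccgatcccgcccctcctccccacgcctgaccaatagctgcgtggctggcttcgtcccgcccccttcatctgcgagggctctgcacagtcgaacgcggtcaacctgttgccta
Gbp2: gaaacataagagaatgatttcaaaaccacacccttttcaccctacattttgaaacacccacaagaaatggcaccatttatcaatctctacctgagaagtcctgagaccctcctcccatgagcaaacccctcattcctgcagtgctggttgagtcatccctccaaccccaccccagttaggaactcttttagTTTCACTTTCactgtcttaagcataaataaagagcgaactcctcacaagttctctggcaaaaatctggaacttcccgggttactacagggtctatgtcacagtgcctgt
Ifit3: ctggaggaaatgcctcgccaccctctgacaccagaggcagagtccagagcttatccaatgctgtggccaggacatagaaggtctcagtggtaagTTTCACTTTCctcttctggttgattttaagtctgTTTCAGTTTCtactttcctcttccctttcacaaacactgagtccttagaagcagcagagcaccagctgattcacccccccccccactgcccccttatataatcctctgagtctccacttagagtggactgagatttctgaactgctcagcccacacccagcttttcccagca

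Across the members, expanded repeat RNA was not accompanied by a rise of the sensors or effectors that passed the test, with 1 small exception in line 41. In line 20b 4 of 37 tested member probe sets (10.8%) were called at a limma adjusted p under 0.05 and all 4 were lower (1 of them, Stat2 on 1450403_at, tested only through the other groups), where 9.56% of the 27330 probe sets tested were called lower, 7.38% higher and 16.9% either way. In line 41 2 of 37 (5.41%) were called, 1 higher and 1 lower, against 8.49% of all probe sets (3.88% higher and 4.61% lower). Between the lines 1 of 37 (2.70%) was called, the same Stat2 probe set with line 20b the lower, against 5.91% of all (2.62% higher and 3.29% lower in line 20b). In Clcn1-null muscle 0 of 39 were called by limma, against 4.21% of all (1.72% higher and 2.49% lower), with 2 at an unadjusted p under 0.05. When arrays were weighted by quality 8 of 39 were called. That setting called 7393 of the 25944 probe sets tested, a larger share than among the members. In Mbnl1-null muscle 6 of 20 (30.0%) were called, against 16.2% of all: 4 were higher (20.0%, against 7.28% of all) and 2 of 20 were lower (against 8.92% of all). Of the 4 called higher, Ifit2 on 1418293_at passed the filter mainly through the Mbnl1-null mice.

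The members' median differences stayed near those of all probe sets tested except in Mbnl1-null muscle. Line 20b had a member median of -0.024 (all probe sets -0.011) and line 41 of -0.042 (-0.004). Clcn1-null muscle had -0.012 (0.033) and Mbnl1-null muscle 0.184 (-0.022). In Mbnl1-null muscle 17 of the 20 tested member probe sets had a positive difference. The 20 probe sets belong to 12 genes, so they are not 20 separate readings. Of the line 20b probe sets 34 of 37 lay within 0.5 of wild type, as did 89.3% of all probe sets tested. Lines 20b and 41 share their 6 wild-type mice, so their differences from wild type are not independent of each other.

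**Figure D2:**
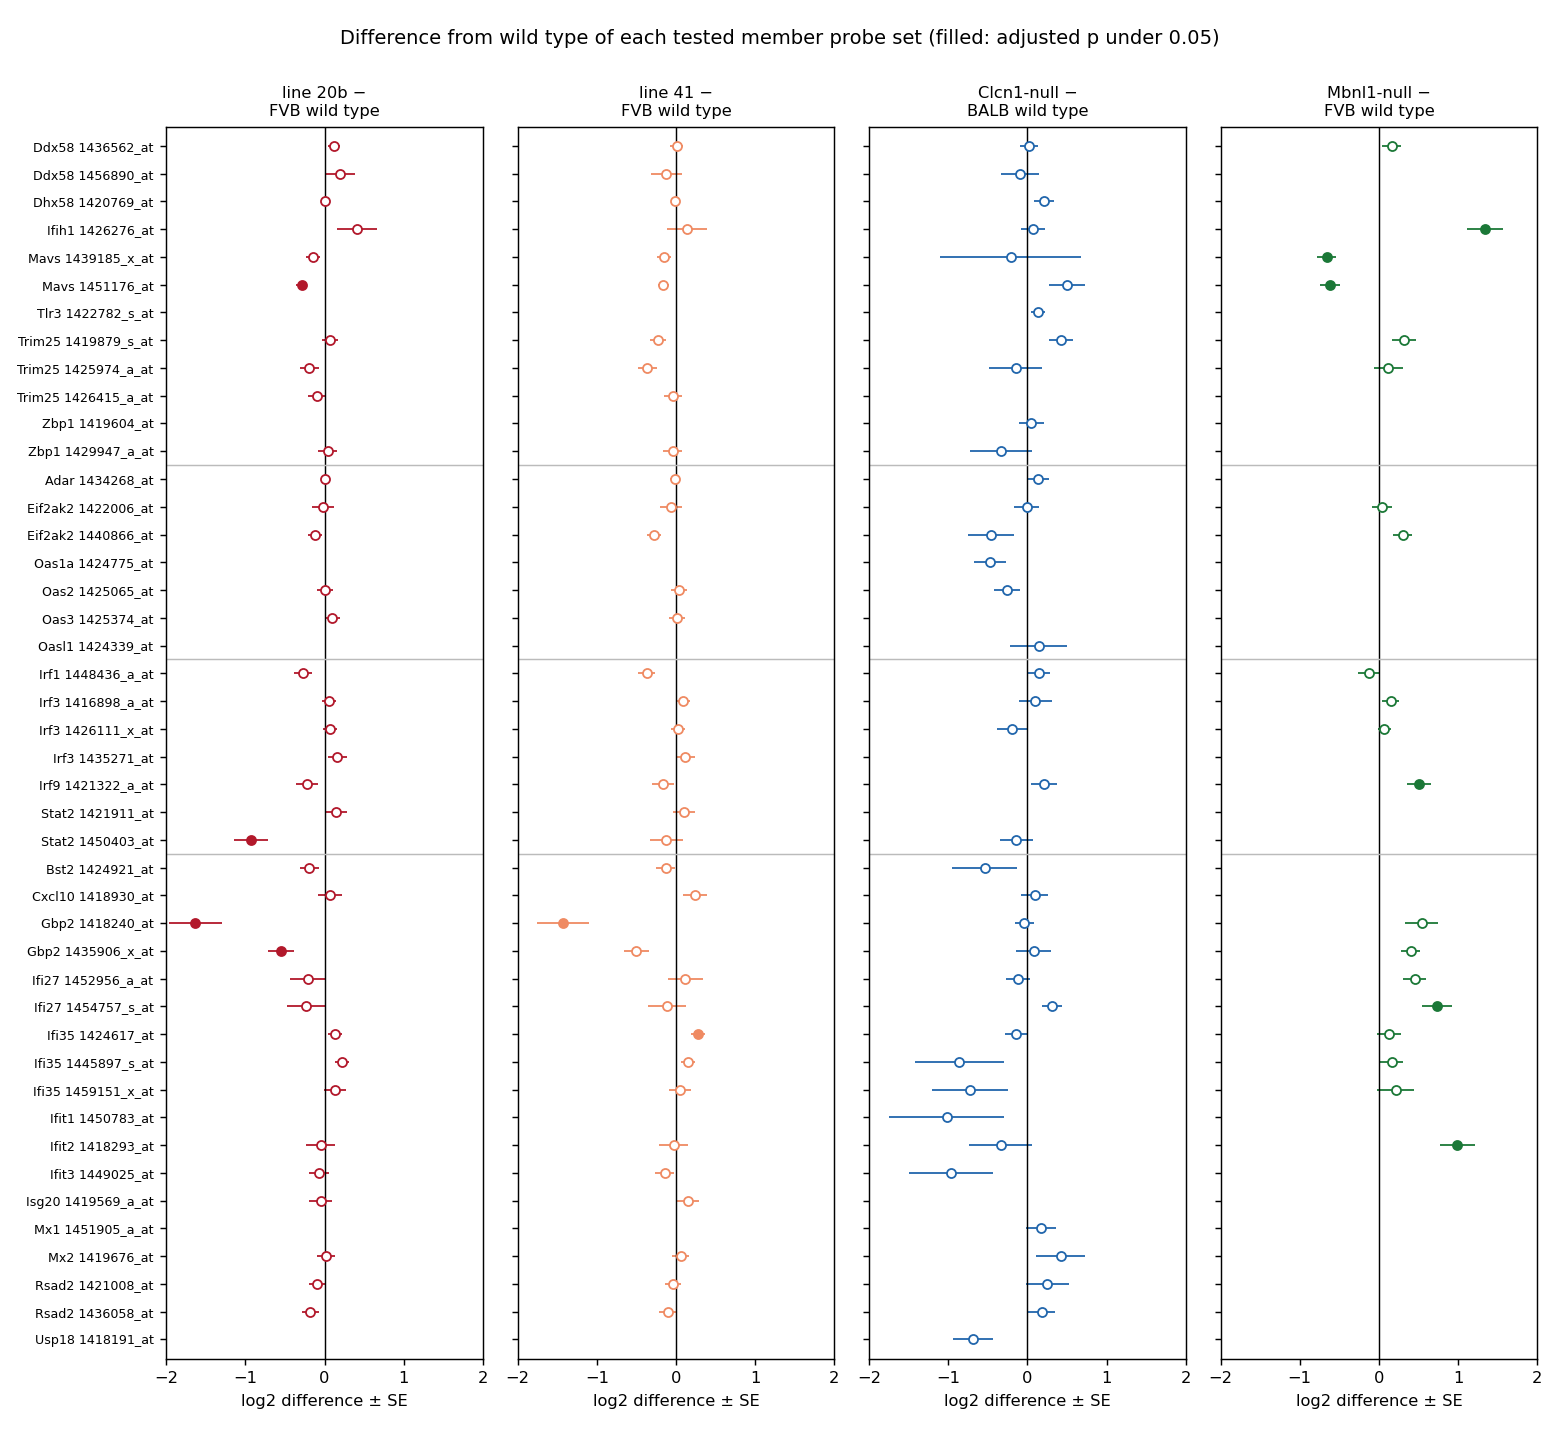
Difference in log2 intensity from wild type of the same experiment (horizontal axis, bars ± SE of the limma fit) for each tested member probe set, grouped by role from RNA sensors at the top through enzymes and transcription factors to effectors, in line 20b, line 41, Clcn1-null and Mbnl1-null muscle. Filled points have an adjusted p under 0.05: in Mbnl1-null muscle Ifih1 lies at 1.34 and the Mavs probe sets at -0.66 and -0.62, and in line 20b Gbp2 lies at -1.63.

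Among the RNA sensors and their partners, Ifih1 and Mavs were called, and in Mbnl1-null muscle they went opposite ways. Ifih1 (probe set 1426276_at, chromosome 2), the helicase MDA5 that binds long double-stranded RNA, read 7.39, 7.46, 7.14, 6.61 and 6.22 in Mbnl1-null mice, against 5.74, 5.71, 5.20, 5.79 and 5.68 in FVB wild-type mice. Every Mbnl1-null mouse was above every wild-type mouse, and Ifih1 was 2.53-fold higher (log2 difference 1.34, SE 0.23, adjusted p = 0.00314). In line 20b its lowest, median and highest values were 7.96, 8.50 and 9.46, in line 41 they were 7.89, 8.21 and 8.74, and in FVB wild type of that experiment 7.41, 8.05 and 8.98. These ranges overlapped, and the differences were 0.41 (SE 0.25, adjusted p = 0.315) in line 20b and 0.14 (SE 0.25, adjusted p = 0.8) in line 41. In Clcn1-null mice Ifih1 read 10.53, 10.48 and 10.33, against 10.23, 10.58 and 10.33 in BALB wild type, a difference of 0.07 (SE 0.15).

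Mavs, the mitochondrial adaptor through which Ifih1 and Ddx58 signal, fell on both of its probe sets in Mbnl1-null muscle. On 1439185_x_at it ranged from 9.82 to 10.30 in the 5 Mbnl1-null mice, against 10.37 to 10.81 in the 5 FVB wild-type mice (difference -0.66, SE 0.12, adjusted p = 0.00403). On 1451176_at it read 8.55, 9.02, 9.17, 8.71 and 8.76 in Mbnl1-null mice, against 9.52, 9.65, 9.28, 9.42 and 9.41 in FVB wild type (difference -0.62, SE 0.13, adjusted p = 0.00721). On each probe set all Mbnl1-null mice lay under all wild-type mice. In line 20b 1451176_at ranged from 11.15 to 11.45 with a median of 11.37, against 11.48 to 11.75 with a median of 11.64 in FVB wild type, a small decrease without overlap (-0.29, SE 0.07, adjusted p = 0.00512). The second probe set did not pass in line 20b (-0.15, SE 0.09, adjusted p = 0.279), nor did either in line 41 (-0.16 with SE 0.07, and -0.15 with SE 0.09). In line 41 1451176_at ran from 11.32 to 11.62 with a median of 11.48.

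In Clcn1-null muscle Mavs depended on 1 mouse. Clcn1-null mice read 12.03, 12.27 and 11.47 on 1451176_at, against 11.37, 11.35 and 11.55 in BALB wild type, and 14.07, 13.58 and 10.63 on 1439185_x_at, against 13.14, 13.06 and 12.71 in BALB wild type. The third Clcn1-null mouse was the lowest of its group on both. With all mice the difference on 1451176_at was 0.50 (SE 0.23, adjusted p = 0.31), and without that mouse it was 0.73 (adjusted p = 0.0356).

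The other sensors were not called in any mutant group in the unweighted fit of all mice, and with array weights Trim25 and Dhx58 were called in Clcn1-null muscle. Ddx58, the helicase RIG-I, differed on its brightest probe set (1436562_at) by 0.12 and 0.01 in lines 20b and 41 and by 0.02 and 0.16 in Clcn1-null and Mbnl1-null mice. Dhx58 (LGP2), a regulator of both helicases, differed by 0.00 in line 20b, -0.01 in line 41 and 0.21 in Clcn1-null mice (0.38 with array weights, adjusted p = 0.0255). Trim25, a ubiquitin ligase that acts on Ddx58, read 10.15, 10.17 and 9.79 on 1419879_s_at in Clcn1-null mice, against 9.66, 9.70 and 9.50 in BALB wild type. These ranges did not overlap, but the difference of 0.42 (SE 0.15) had an adjusted p of 0.223. Without the third Clcn1-null mouse it was called (0.54, adjusted p = 0.0479), as it was with array weights (0.54, adjusted p = 0.00686). The other Trim25 probe set tested there, 1425974_a_at, differed by -0.15 (SE 0.34), and with array weights it was called lower (-0.81, adjusted p = 0.0454). In line 41 1425974_a_at was called lower without line 41 mouse 4 (-0.43, adjusted p = 0.0366) or without wild-type mouse 6 (-0.43, adjusted p = 0.0297). On 1419879_s_at line 20b was called above line 41 under quantile normalisation (0.34, adjusted p = 0.0453), array weights (0.31, adjusted p = 0.0473) or without line 41 mouse 6 (0.35, adjusted p = 0.0442). Zbp1, a sensor of Z-form nucleic acid, differed by 0.04 in line 20b, -0.04 in line 41 and -0.33 in Clcn1-null mice on 1429947_a_at. Tlr3, the endosomal receptor for double-stranded RNA, was tested only in experiment 2, with a difference of 0.13 (SE 0.09).

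No double-stranded RNA enzyme was called by limma in the unweighted fit of all mice, with 1 probe set at an unadjusted p under 0.05 each in line 41 and Mbnl1-null muscle and 0 in line 20b and Clcn1-null muscle. The tested probe sets of this group differed by -0.12 to 0.10 in line 20b and by -0.28 to 0.04 in line 41, over 5 probe sets. They differed by -0.47 to 0.14 in Clcn1-null muscle (6 probe sets) and by 0.04 to 0.30 in Mbnl1-null muscle (2 probe sets). With array weights Oas2 (1425065_at) was called lower in Clcn1-null muscle (-0.31, adjusted p = 0.0296). Eif2ak2, the kinase PKR that halts translation when it binds double-stranded RNA, was the brightest of them in experiment 1. On 1422006_at its median and highest values were 10.38 and 10.73 in line 20b and 10.32 and 10.61 in line 41, against 10.42 and 10.48 in FVB wild type. The ranges overlapped, with differences of -0.02 and -0.06 (SE 0.14 each). The difference was 0.04 (SE 0.13) in Mbnl1-null and -0.01 (SE 0.16) in Clcn1-null mice. Its probe set 1440866_at was called lower in line 41 under quantile normalisation (-0.27, adjusted p = 0.046), without line 41 mouse 1 (adjusted p = 0.0498) and without line 41 mouse 6 (adjusted p = 0.0368). Oas2 and Oas3, which make the second messenger that activates RNase L, differed by 0.01 and 0.10 in line 20b and by 0.04 and 0.01 in line 41. Adar, which edits adenosines in double-stranded RNA, differed by 0.01 in line 20b and -0.01 in line 41 (SE 0.06 each) on 1434268_at, at a mean of 5.71 in wild type.

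Among the transcription factors Irf9 was higher in Mbnl1-null muscle. Irf9 (1421322_a_at, chromosome 14), the DNA-binding part of the complex that interferon activates, read 7.70, 7.50, 7.57, 7.57 and 7.75 in Mbnl1-null mice, against 6.73, 7.56, 6.85, 7.19 and 7.20 in FVB wild type. A single wild-type mouse, number 2, reached into the Mbnl1-null range, and the difference was 0.51 (SE 0.15, adjusted p = 0.0378). The call was kept in only 2 of 10 fits that left out a mouse, with adjusted p up to 0.0866. Irf9 differed by -0.22 (SE 0.14) in line 20b, -0.16 (SE 0.14) in line 41 and 0.21 (SE 0.16) in Clcn1-null mice, none of them called. Irf3, the factor activated first by the sensors, and Irf1, an early target of interferon gamma, were over the floor in every mouse and not called in the unweighted fit of all mice. Irf3 on 1426111_x_at differed by 0.07 and 0.03 in lines 20b and 41, and by -0.19 and 0.07 in Clcn1-null and Mbnl1-null mice.

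Irf1 (1448436_a_at) ranged from 10.68 to 11.15 with a median of 10.96 in line 20b and from 10.59 to 11.12 with a median of 10.88 in line 41, against 10.86 to 11.50 with a median of 11.22 in FVB wild type. The differences of -0.27 (SE 0.11, adjusted p = 0.131) and -0.37 (SE 0.11, adjusted p = 0.0551) did not pass. In line 41 Irf1 was called lower with the replicate block (adjusted p = 0.0324), the filter at log2 7 (0.0444) or 1 probe set per gene (0.0499), and in line 20b without wild-type mouse 5 (0.0454). Stat2, the partner of Irf9, gave different results on its 2 probe sets. On the dim 1450403_at the line 20b mice ran from 3.55 to 4.28 with a median of 4.07, line 41 mice from 4.21 to 5.46 with a median of 4.80, and FVB wild-type mice from 4.40 to 5.21 with a median of 5.10. All 6 line 20b mice were under the floor, and the probe set passed the filter only through mice of the other groups, so it had to differ and no size or p is given, although it is among the calls counted above. On the brighter 1421911_at the difference was 0.14 (SE 0.14, adjusted p = 0.56) in line 20b and 0.10 (SE 0.14) in line 41.

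Among the interferon-stimulated effectors, Gbp2 was lower in both repeat lines. Gbp2 (1418240_at, chromosome 3), a guanylate-binding protein induced above all by interferon gamma, ranged from 6.53 to 7.61 with a median of 7.01 in line 20b and from 6.78 to 7.82 with a median of 7.22 in line 41, against 7.68 to 9.88 with a median of 8.61 in FVB wild type. No line 20b mouse reached the wild-type range and a single line 41 mouse did. Gbp2 was 3.09-fold lower in line 20b (-1.63, SE 0.33, adjusted p = 0.00214) and 2.70-fold lower in line 41 (-1.43, SE 0.33, adjusted p = 0.012), and the lines differed by -0.19 (SE 0.33, adjusted p = 0.836). The wild-type group was itself wide: mice 1 and 2 read 9.88 and 9.56. Without those 2 mice the difference was -1.11 in line 20b (adjusted p = 0.00982), and in line 41 the call was lost (adjusted p = 0.0583).

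The second Gbp2 probe set (1435906_x_at) was lower by less. It ranged from 8.98 to 9.56 in line 20b and from 9.27 to 9.88 in line 41, against 9.48 to 10.40 in FVB wild type, with differences of -0.55 (SE 0.16, adjusted p = 0.0191) and -0.50 (SE 0.16, adjusted p = 0.0551). Without wild-type mice 1 and 2 the line 20b call was lost too (adjusted p = 0.129). In Mbnl1-null muscle both Gbp2 probe sets were above wild type on average without passing the test. On 1418240_at Mbnl1-null mice read 7.61, 7.77, 8.30, 7.79 and 7.03, against 7.17, 7.13, 6.80, 7.15 and 7.54 in FVB wild type (0.54, SE 0.21, adjusted p = 0.106). On 1435906_x_at they read 8.56, 8.63, 8.93, 8.52 and 8.35, against 7.98, 8.16, 8.22, 8.19 and 8.46 in FVB wild type (0.40, SE 0.12, adjusted p = 0.0508). In Clcn1-null mice Gbp2 read 8.66, 8.64 and 8.72 on 1418240_at, against 8.58, 8.76 and 8.79 in BALB wild type, a difference of -0.04 (SE 0.12).

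Endothelial markers moved with Gbp2 in the repeat lines, and in whole muscle fewer cells of a type and less RNA per cell cannot be told apart. In line 20b 6 of 8 endothelial markers fell (Cldn5, Tek, Pecam1, Cdh5, Eng and Kdr), where 9.56% of all probe sets were called lower, and their summed intensity was 7486 to 10463, against 12649 to 15804 in FVB wild type. In line 41 3 of 8 fell (Cdh5, Pecam1 and Tek), where 4.61% of all probe sets were called lower, with a sum of 9776 to 12061. The sum of 4 B cell markers was lower as well in line 20b, at 2959 to 4815, against 9668 to 13804 in FVB wild type. In line 41 it was 6999 to 10004. Adipocyte markers fell in line 20b (3 of 3 tested) and none of 3 was called by limma in line 41, with 2 at an unadjusted p under 0.05. None of 10 tested macrophage markers was called by limma in line 20b, with 3 at an unadjusted p under 0.05. The part of these markers in the Gbp2 difference was not tested.

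Ifit2 and Ifi27 were the effectors called higher in Mbnl1-null muscle. Ifit2 (1418293_at, chromosome 19), which binds RNA and limits its translation, read 5.44, 5.74, 6.31, 6.04 and 5.14 in Mbnl1-null mice, against 4.82, 4.30, 5.10, 4.92 and 4.60 in FVB wild type. The ranges did not overlap, but 4 of the 5 wild-type mice were under the floor, and the probe set passed the filter mainly through the Mbnl1-null mice. The fitted value of 0.99 (SE 0.22, limma adjusted p = 0.0122) is therefore not a measured size. Ifit2 differed by -0.05 in line 20b and -0.03 in line 41 (SE 0.18 each) and by -0.34 (SE 0.40) in Clcn1-null mice.

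Ifi27 (chromosome 12), a small membrane protein strongly induced by type I interferon, read 10.02, 9.98, 10.11, 10.03 and 9.27 on 1454757_s_at in Mbnl1-null mice, against 9.41, 9.18, 8.95, 9.49 and 8.74 in FVB wild type. Mouse 5 of the Mbnl1-null group lay within the wild-type range and the other 4 lay above it (0.73, SE 0.19, adjusted p = 0.022). The second probe set gave 0.45 (SE 0.14, adjusted p = 0.0548), and the call on the first was lost without Mbnl1-null mouse 3, without Mbnl1-null mouse 4 or without wild-type mouse 3, with adjusted p up to 0.056. In Clcn1-null mice 1454757_s_at read 13.05, 13.09 and 12.95, against 12.52, 12.85 and 12.80 in BALB wild type. These ranges did not overlap, and the difference of 0.31 (SE 0.13) was not called (adjusted p = 0.28). It ranged from 12.42 to 12.80 in line 20b and from 12.24 to 13.67 in line 41, against 12.28 to 13.68 in FVB wild type, with differences of -0.24 and -0.11 (SE 0.24 each).

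**Figure D3:**
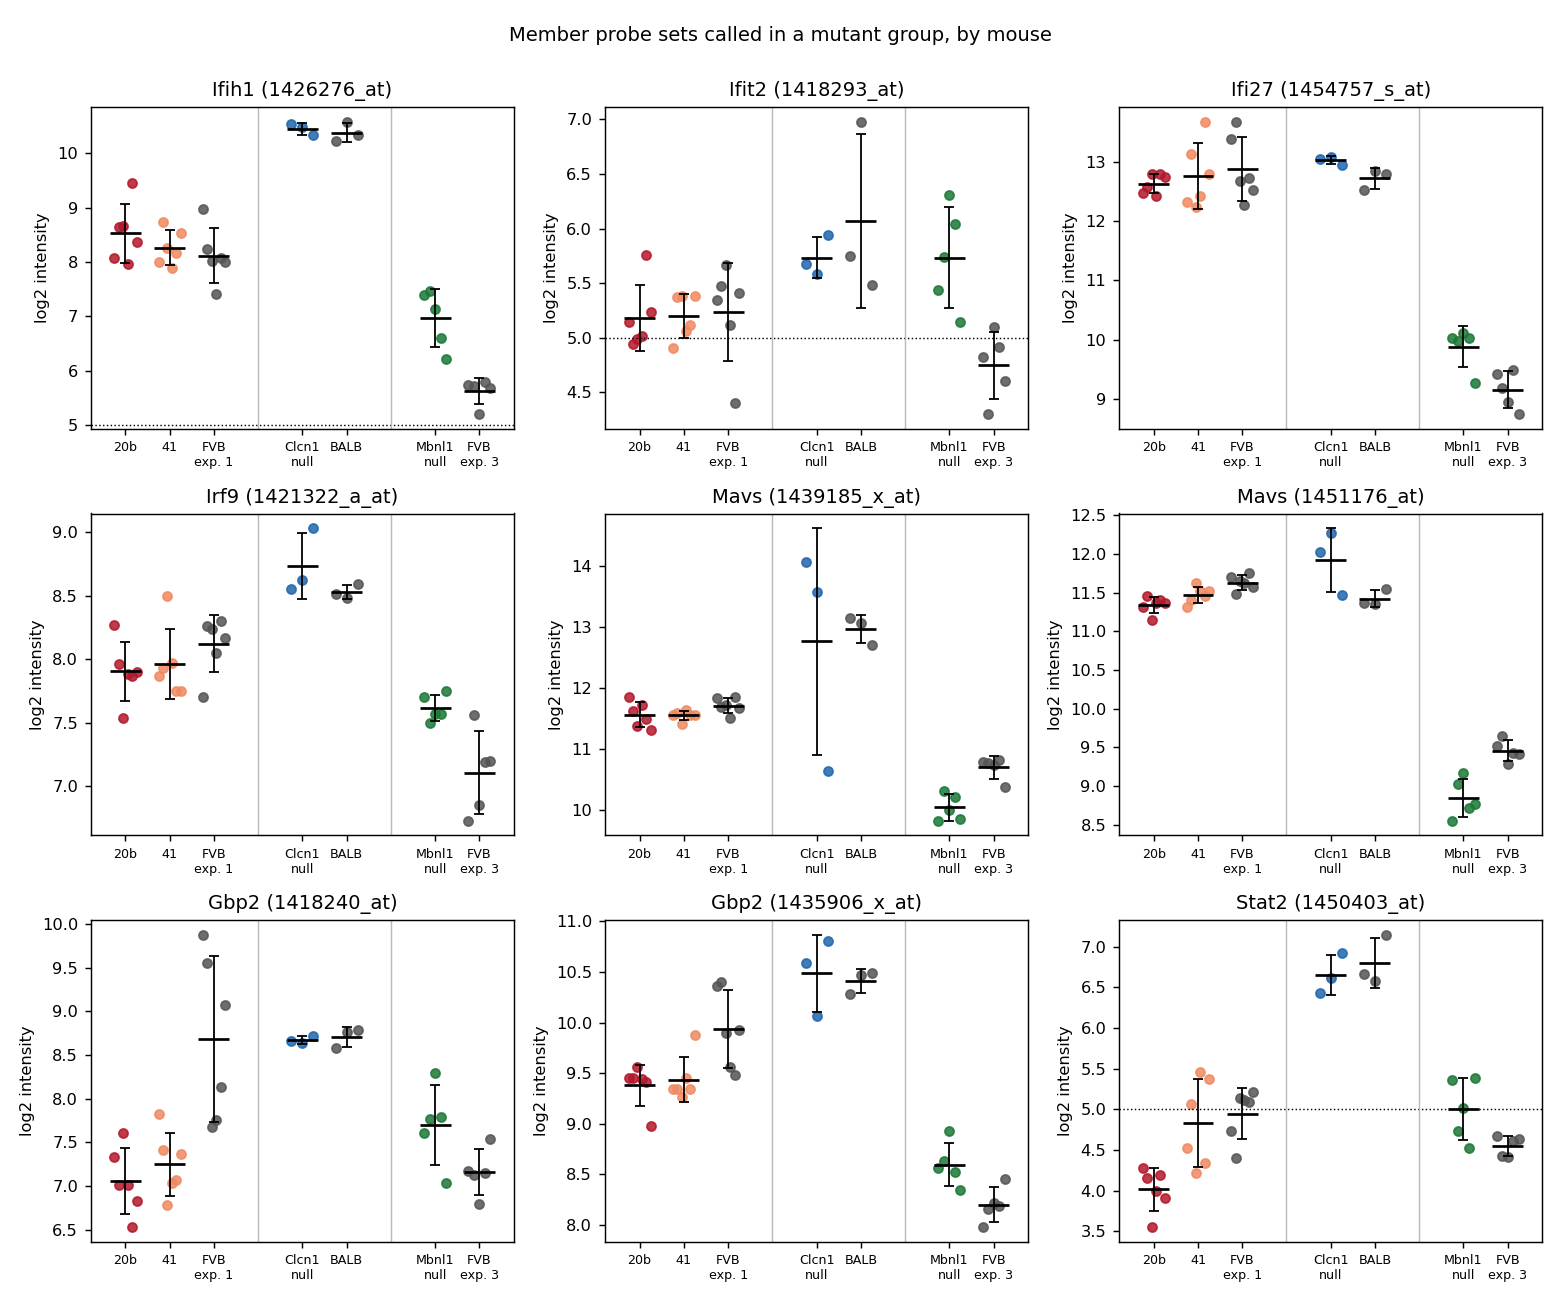
Log2 intensity (vertical axis) of 9 member probe sets in each mouse, with mutant groups left of their wild type in each of the 3 experiments. Points are mice, horizontal bars are group means, error bars are SD, and the dotted line marks the log2 floor of 5. Mbnl1-null mice lie above all FVB wild-type mice for Ifih1 and Ifit2 and under all of them on both Mavs probe sets, and line 20b mice lie under all FVB wild-type mice for Gbp2 on 1418240_at.

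Ifi35, a protein released and induced by interferon, was among the brightest members in each experiment. On 1445897_s_at it ranged from 12.82 to 13.13 in line 20b and from 12.61 to 13.12 in line 41, against 12.58 to 12.92 in FVB wild type, and was called only under quantile normalisation, higher in line 20b (0.32, adjusted p = 0.00804). On 1424617_at line 41 mice ranged from 10.47 to 10.89 with a median of 10.65, against 10.20 to 10.58 with a median of 10.41 in FVB wild type, a small increase with overlapping ranges (0.28, SE 0.09, adjusted p = 0.0481). The call was kept in 4 of 18 fits that left out a mouse of the experiment. In Clcn1-null mice Ifi35 on 1445897_s_at read 13.26, 13.17 and 11.20, against 13.36, 13.47 and 13.38 in BALB wild type, with the third Clcn1-null mouse far under the others (-0.86, SE 0.56). In Mbnl1-null mice the same probe set read 11.18, 11.12, 10.97, 11.20 and 10.80, against 10.54, 11.29, 10.64, 11.16 and 10.86 in FVB wild type (0.16, SE 0.15).

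The remaining effectors were not called in the unweighted fit of all mice. With array weights Ifit3 (1449025_at) was called lower in Clcn1-null muscle (-2.02, limma adjusted p = 0.00567), as was Bst2 (-0.9, adjusted p = 0.00887). In the unweighted fit the lowest difference of any tested effector there was -1.02, so the size for Ifit3 depends on the weights. Over the 6 mice of experiment 2 Ifit3 ran from 8.27 to 10.56. In line 20b and line 41 Ifit3 differed by -0.07 and -0.14, Bst2 (tetherin, which holds budding virus at the membrane) by -0.19 and -0.13, Cxcl10 (a chemokine for T cells) by 0.07 and 0.24, Mx2 by 0.02 and 0.06, and Isg20, an exonuclease, by -0.05 and 0.15. Rsad2, the antiviral enzyme viperin, differed by -0.18 and -0.10 on 1436058_at. In Clcn1-null muscle 7 probe sets of 6 member genes did not overlap between the groups (17.9% of 39), against 28.4% of all probe sets tested. Among them Usp18, a brake on interferon receptor signalling, read 6.66, 6.67 and 6.70 in Clcn1-null mice, against 6.93, 7.25 and 7.91 in BALB wild type (-0.69, SE 0.25, adjusted p = 0.223). Bst2, whose ranges overlapped, read 6.76, 6.96 and 8.30 in Clcn1-null mice, against 7.80, 7.76 and 8.07 in BALB wild type. Without the third Clcn1-null mouse Bst2 was called lower (-1.02, limma adjusted p = 0.0208).

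Other genes of the pathway were counted from 5 lists that held 106 genes, of which 97 had a probe set, with the brightest probe set standing for a gene. The lists were chosen with earlier results of these data known, so their counts describe these genes and do not test the pathway. In Mbnl1-null muscle 13 of 26 tested further interferon-stimulated genes rose and none fell, with a median difference of 0.56, where 7.28% of all probe sets tested were called higher and 8.92% lower. Of the 40 genes measured on this list, 12 lay under the floor in every mouse. A gene can pass the filter through the Mbnl1-null mice alone, and which of the 13 did so is not given here. The largest increases were those of Rtp4 (2.35, SE 0.37, adjusted p = 0.00181), a receptor chaperone, Gbp3 (1.72, SE 0.17, adjusted p = 0.000102), Trim30a (1.42, SE 0.34, adjusted p = 0.0154) and Iigp1 (1.13, SE 0.28, adjusted p = 0.0204), an immunity-related GTPase. The others were Lgals3bp, Tor3a, Parp12, Lgals9, Ifitm3, Samd9l, Dtx3l, Xaf1 and Ly6e, with differences of 0.54 to 0.96. The count ran from 8 without FVB wild-type mouse 2 to 16 without Mbnl1-null mouse 5. In line 20b none of 32 rose and 7 fell (9.56% of all probe sets were called lower), led by Gbp7 (-1.38, SE 0.18), Iigp1 (-1.24, SE 0.38), Gbp6 (-0.98, SE 0.15) and Ly6e (-0.97, SE 0.13), a lymphocyte surface antigen.

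In line 41 none of these 32 genes rose and 4 fell, where 4.61% of all probe sets were called lower: Gbp7 (-0.88, SE 0.18), Samd9l (-0.80, SE 0.19), Rtp4 (-0.78, SE 0.22) and Ly6e (-0.43, SE 0.13). Without wild-type mice 1 and 2 the counts lower were 5 in line 20b and 1 in line 41. In Clcn1-null muscle 36 were tested: Rtp4 (-1.42, SE 0.21) and Ly6e (-1.13, SE 0.16) fell and Ifitm2 (0.91, SE 0.14), which blocks virus entry, rose, where 2.49% of all probe sets were called lower and 1.72% higher. Adipocyte markers moved there too: Cidec, Retn and Adipoq rose (3 of 3 tested, median 2.56), and the sum of 4 markers was 41280 to 53135 in Clcn1-null mice, against 9185 to 12339 in BALB wild type. Their part in these differences was not tested. Without Clcn1-null mouse 1, without Clcn1-null mouse 2 or without any single BALB wild-type mouse, 0 of these genes were called in either direction. Rtp4 thus rose in Mbnl1-null muscle and fell in line 41 and Clcn1-null muscle, each against its own wild type, and the difference between experiments was not tested.

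Antigen presentation genes, many of them induced by interferon gamma, were lower in line 20b for 8 of 14 tested, with a median difference of -0.43, and none was higher, where 9.56% of all probe sets were called lower and 7.38% higher. B2m, the light chain of class I molecules, differed by -0.85 (SE 0.17, adjusted p = 0.00192), the heavy chains H2-K1 and H2-D1 by -0.78 (SE 0.16) and -0.75 (SE 0.15), and the immunoproteasome subunit Psmb8 by -0.69 (SE 0.21). Cd74, Tapbp, Psme1 and Tap2 also fell. Leaving out wild-type mice 1 and 2 gave 5 genes lower. In line 41 B2m alone was called of 14 (-0.71, SE 0.17, adjusted p = 0.0155), with a median of -0.30. No gene of this list was called in Clcn1-null muscle by limma, with 5 at an unadjusted p under 0.05 and a median of -0.11, and in Mbnl1-null muscle Psme1 fell (-0.48, SE 0.09) and none of 11 rose.

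In line 20b 2 of 11 interferon receptors and signalling genes, 1 of 12 sensor adaptors and kinases and 3 of 13 other double-stranded RNA binding proteins were called, near the 16.9% of all probe sets. In Mbnl1-null muscle these counts were 1 of 9, 1 of 6 and 2 of 12, against 16.2% of all probe sets. Of the interferon receptors and signalling genes, Irf5, a transcription factor downstream of Toll-like receptors, rose in line 20b (0.65, SE 0.09) and in Mbnl1-null muscle (1.31, SE 0.36), Jak1, the kinase shared by interferon receptors, fell in line 20b (-0.45, SE 0.10), and the feedback inhibitor Socs3 rose in Clcn1-null muscle (2.19, SE 0.36). Irf5 was also higher in line 20b than in line 41 (0.55, SE 0.09). Of the sensor adaptors and kinases Cyld, a deubiquitinase, rose in line 20b (0.39, SE 0.09) and Rnf135, a ubiquitin ligase for Ddx58, rose in Mbnl1-null muscle (0.52, SE 0.15). Of the other double-stranded RNA binding proteins Strbp fell in line 20b (-0.60, SE 0.11), line 41 (-0.52, SE 0.11) and Mbnl1-null muscle (-1.38, SE 0.30). Dicer1, which cuts double-stranded RNA into microRNAs, fell in line 20b (-0.46, SE 0.08) and Mbnl1-null muscle (-0.62, SE 0.15), and Drosha rose in line 20b (0.47, SE 0.08).

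**Figure D4:**
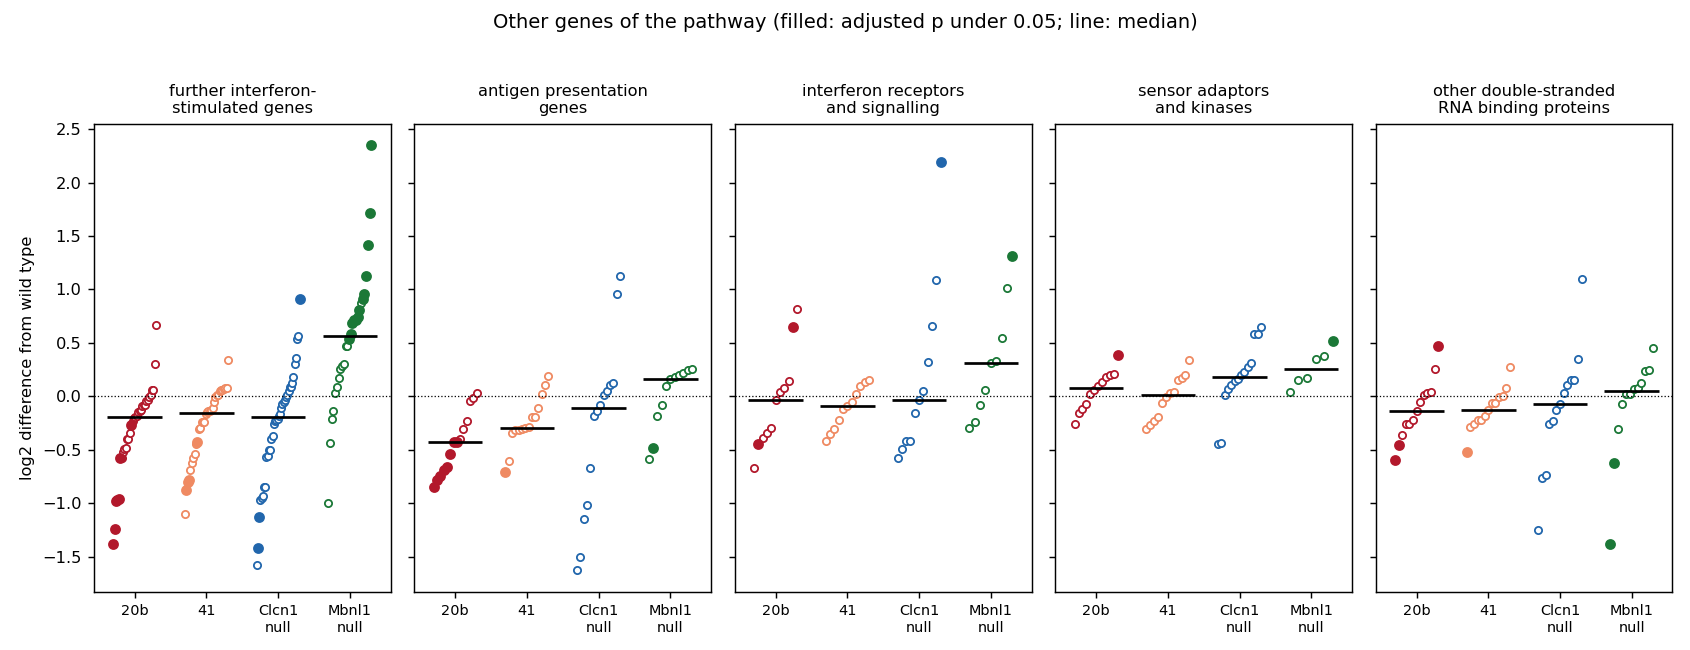
Difference in log2 intensity from wild type (vertical axis) for the tested genes of 5 pathway lists in line 20b, line 41, Clcn1-null and Mbnl1-null muscle. Each point is a gene, filled where the adjusted p is under 0.05, and lines are medians. Of the further interferon-stimulated genes, 13 of 26 are filled and above 0 in Mbnl1-null muscle, and 7 of 32 are filled and under 0 in line 20b.

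Some macrophage markers rose in Mbnl1-null muscle and 1 fell. Of 10 tested, Cd68 (1.91, SE 0.40), Ctss (1.04, SE 0.25) and Mrc1 (0.70, SE 0.17) rose and Cd163 fell (-1.10, SE 0.30), where 7.28% of all probe sets were called higher and 8.92% lower. The summed intensity of the 12 markers was 10471 to 19904 (median 11197), against 6384 to 11375 (median 9267) in FVB wild type, with overlapping ranges. Endothelial markers were called for 0 of 8 by limma (1 at an unadjusted p under 0.05), with sums of 2864 to 4144, against 2962 to 3503 in FVB wild type. Of the T and NK cell markers 0 of 3 tested were called by limma (1 at an unadjusted p under 0.05), and 5 of 8 measured lay under the floor in every mouse. In Clcn1-null muscle Cd68 was higher as well, by 3.25 (SE 0.34), and the macrophage sum was 29657 to 37814, against 16791 to 25756 in BALB wild type. The part of macrophages in the Mbnl1-null differences was not tested.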

How the data were processed

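Quadriceps RNA of 34 mice was hybridised to a pair of Affymetrix arrays, 430A and 430B (experiments 1 and 2), or to the single array that carries both probe set collections (experiment 3). The authors deposited linear intensities per probe set, computed with GCRMA per the submitters' processing notes. Its version and settings are not given in the sources used here. GCRMA compresses dim readings towards a common low value, so differences under the floor are not used as levels. Arrays give no counts, so the number of mice limits the precision.

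The log2 of each intensity was taken, and both arrays of a mouse were joined by its number in the title. Probe sets were named from the supplied platform annotation, with symbols updated through RefSeq identifiers: 34945 had 1 symbol, 932 several and 9160 none. A probe set was tested where it reached log2 5 in at least as many mice as the smallest group of the experiment. Each experiment was fitted alone with limma 3.58.1 in R 4.3.3 (lmFit and trended eBayes) on group means alone. Tests were two-sided, with Benjamini-Hochberg adjustment over all probe sets tested in the experiment and calls at an adjusted p under 0.05. The fit was tested on simulated data. SE is the moderated fit's standard error and SD the spread between mice.

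The members and gene lists were chosen with earlier results of these data known. The rule for named genes was every called member probe set, up to 6 members brighter than log2 10 in all groups of an experiment, and up to 4 called genes with the largest change per pathway list; other members named were chosen after their values were seen. The labels do not say whether mice of a group were littermates, so p-values measure the spread between these animals. The settings varied were the scaling (quantile or median), the filter (none or log2 7), the probe sets kept (1 per gene), the trend in eBayes, array weights, 430A and 430B fitted apart, a replicate block, leaving out wild-type mice 1 and 2 of experiment 1, and leaving out each mouse.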

Additional observations from a re-analysis of the deposited data

Results flagged for a closer look

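Of 50 groups of mice examined over the called member probe sets, 8 held a mouse far from the others by Dixon's criterion at the 95% level, and chance flags about 1 group in 20. Gbp2 on 1435906_x_at read 9.88 in line 41 mouse 6, where the other mice of the line read 9.27 to 9.45, and 8.98 in line 20b mouse 6, where the others read 9.41 to 9.56. Ifi27 on 1454757_s_at read 9.27 in Mbnl1-null mouse 5, with the nearest other mouse at 9.98. This mouse was also the lowest of its group for Ifih1 (6.22), Ifit2 (5.14) and both Gbp2 probe sets (7.03 and 8.35). Ifit2 read 5.76 in line 20b mouse 5, with the nearest other mouse at 5.24. Ifih1 read 5.20 in FVB wild-type mouse 3 of experiment 3, with the nearest other mouse at 5.68.

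Mavs on 1439185_x_at read 11.41 in line 41 mouse 3, with the others at 11.56 to 11.63, and 10.37 in FVB wild-type mouse 5 of experiment 3, with the others at 10.73 to 10.81. Irf9 read 8.50 in line 41 mouse 3, with the nearest other mouse at 7.97. Stat2 on 1450403_at was called between the repeat lines, with a fitted value of -0.82 for line 20b against line 41. All line 20b mice were under the floor and the probe set passed the filter only through the other groups, so no size is given. The call was kept in only 12 of 18 fits that left out a mouse.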

How the results depend on the processing

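Of 13 called member differences, 9 kept an adjusted p under 0.05 in every fit that left out a mouse and 7 also under every other setting in which they were tested: Ifih1, Ifit2 and both Mavs probe sets in Mbnl1-null muscle, and Gbp2 (1418240_at), Mavs and Stat2 in line 20b. Stat2 and Ifit2 were tested there mainly through the group in which they were high, so their persistence says little. No called difference changed sign. For line 20b against FVB wild type, quantile normalisation gave 1 member called higher (Ifi35 on 1445897_s_at), and 1 probe set per gene gave 2 called lower and 2566 calls in all. For line 41 against FVB wild type, members called higher were 0 with no filter, 1 probe set per gene, array weights, the replicate block, the arrays fitted apart or without wild-type mice 1 and 2, and members called lower were 2 under quantile normalisation or the replicate block, 3 with a filter at log2 7 and 0 without those mice. All calls were 1228 with 1 probe set per gene and 1425 without those mice. Leaving out single mice gave 0 to 1 called higher and 1 to 3 called lower. For line 20b against line 41, members called higher were 1 under quantile normalisation or array weights, members called lower were 0 under quantile normalisation or the filter at log2 7, all calls were 760 with 1 probe set per gene, and leaving out mice gave 0 to 1 in each direction.

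For Clcn1-null against BALB wild type, all calls were 610 with no filter, 715 with 1 probe set per gene, 7393 with array weights and 110 with the replicate block, and 34 to 2286 when a mouse was left out, the highest without Clcn1-null mouse 3. Array weights gave 4 member probe sets called higher (Trim25 on 1419879_s_at, Dhx58, Mavs and Ifi27) and 4 lower (Ifit3, Bst2, Oas2 and Trim25 on 1425974_a_at). Leaving out mice gave 0 to 2 higher and 0 to 1 lower. For Mbnl1-null against FVB wild type, all calls were 1502 after the median shift, 1727 with no filter and 1462 with 1 probe set per gene. Members called higher were 2 after the median shift, and 2 to 6 when a mouse was left out, and members called lower were 1 with 1 probe set per gene, since Mavs then has 1. Causes not named here were not tested.

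The labels do not say whether mouse numbers pair animals across groups. Deviations of same-numbered mice correlated at -0.153 to 0.398 over the comparisons, and in none was every pair over 0.1. These deviations are from means of few mice, so they do not settle the question. With the replicate block Irf9 was no longer called in Mbnl1-null muscle, and Irf1 (1448436_a_at) in line 41 and Ifi27 (1452956_a_at) in Mbnl1-null muscle were called. Signal over the floor limits what can be tested: 26 of 55 member probe sets lay under it in every mouse of experiment 3.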

Other observations

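Of 35 member probe sets not tested in experiment 3, 4 read above every FVB wild-type mouse in all Mbnl1-null mice and 0 read below, where 0.496% of 28808 untested probe sets read above. They were picked out after their values were seen: Oasl2, Ifit3, Ifit1 and Bst2. Oasl2, an OAS-like protein induced by interferon, read 5.18, 4.59, 4.76, 4.83 and 4.72 in Mbnl1-null mice, against 3.48, 3.55, 3.75, 3.45 and 3.68 in FVB wild type. Of the 10 mice 9 were under the floor, so no difference is given. Ifit3, a partner of the other Ifit proteins, read 4.49, 4.50, 4.97, 5.57 and 4.59 in Mbnl1-null mice, against 4.15, 4.36, 4.34, 4.18 and 4.22 in FVB wild type. Ifit1, which binds RNA that lacks host cap methylation, ranged from 2.00 to 3.60 in Mbnl1-null mice, against 1.86 to 1.93 in FVB wild type, all under the floor. Bst2 ranged from 4.74 to 5.23 in Mbnl1-null mice, against 4.52 to 4.73 in FVB wild type. No fold is given for these genes because the readings are too dim. In Clcn1-null muscle 1 of 16 untested member probe sets (Isg20) read above every BALB wild-type mouse, where 5.66% of all untested probe sets did. In lines 20b and 41 0 of 18 did so against their wild type.

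Gbp6 averaged 11.53 in line 20b, against 12.52 in line 41 (SE of the difference 0.15, limma adjusted p = 0.000621), and Gbp2 on 1418240_at differed by -0.19 (SE 0.33, adjusted p = 0.836). Igtp, an immunity-related GTPase, was higher in line 20b than in line 41 (1.25, SE 0.27, adjusted p = 0.00935). Ighm, the heavy chain of IgM and a B cell marker, fell in line 20b (-1.51, SE 0.12), line 41 (-0.56, SE 0.12) and Mbnl1-null muscle (-2.03, SE 0.15), each against its own wild type. It was the only B cell marker called, of 2 tested in each repeat line and 1 tested in Mbnl1-null muscle. Of the 4 measured, 2 lay under the floor in every mouse of each of these comparisons. Whether B cells were fewer was not tested.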
